A study of Mus musculus with 12 samples.

Results

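Klf11 and 8 of its relatives in the Krüppel-like factor (KLF) family, Klf2, Klf3, Klf4, Klf6, Klf7, Klf10, Klf12 and Klf13, were followed through RNA-seq of mouse primary CD8+ T cells. These 9 genes, of 54532 listed per library and of 17 protein-coding KLF genes among them, were taken by gene name. Klf11 was chosen by its FPKM values in these same libraries, and the other names were listed with results of these libraries known. The list does not follow level: it holds Klf4 and Klf12, which lay under 1 FPKM, and leaves out Klf9 and Klf16, which lay above it. Values of the 9 genes are therefore given as a description, with intervals and no p-value of any single gene, and whether a difference passed the threshold of the fit over all genes is stated as part of that description and supports nothing. The lists of other genes read beside them were likewise chosen with earlier results of these data known. Counts and p-values of listed genes are thus descriptions and not independent tests.

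CD8+ T cells were taken from the spleen and lymph nodes of C57BL/6 mice, whose age the labels do not give, activated through CD3 and CD28, and transfected with an siRNA. All 4 groups carried an siRNA: a non-targeting one (siNTC, labelled WT) or one against Creb1 (siCreb1, labelled Creb1 KD). Each kind received DMSO, the vehicle, or 20 μM TVA for 24 h, which gave the groups siNTC, siNTC plus TVA, siCreb1 and siCreb1 plus TVA with 3 libraries each. TVA is trans-vaccenic acid, a fatty acid of ruminant milk and meat, and Creb1 encodes CREB, the transcription factor that binds cAMP response elements. The comparisons ask what TVA does to RNA levels, what losing Creb1 does, and whether the TVA effect differs between siNTC and siCreb1 cells. The knockdown is transient and leaves some Creb1 RNA. Nothing in the labels says that the 3 libraries of a group came from separate mice or cultures, so p-values measure only the spread between these libraries.

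The libraries held between 16660234 and 24602484 reads recovered from the deposited values. Creb1 lay between 10.3 and 12.4 FPKM in the 6 siNTC libraries and between 1.17 and 1.81 FPKM in the 6 siCreb1 libraries, 13.2% of the siNTC mean (exact permutation test, two-sided, p = 0.00216, n = 6 against 6, the smallest p that 924 divisions allow). All 6 genes listed as CD8 T cell markers (Cd3d, Cd3e, Cd3g, Cd2, Cd8a and Cd8b1) were expressed, with a summed 1843 to 1971 FPKM. Of these, Cd8a and Cd8b1 encode CD8, and the others are shared with other T cells. The defining markers of B cells (2 of 6 at a mean of 1 FPKM or more, summed 9.51 to 14.3 FPKM) and myeloid cells (2 of 8, summed 8.53 to 13.8 FPKM) were low, and those of endothelial and erythroid cells summed to under 1 FPKM in every library, with 1 of 5 at 0 throughout for each type. Natural killer cell markers, which activated CD8+ T cells share in part, were all at a mean of 1 FPKM or more and summed to 40.6 to 44.8 FPKM, and the 3 CD4 T cell markers summed to 3.98 to 5.82 FPKM. The myeloid sum was higher in siCreb1 plus TVA (12.6 to 13.8 FPKM) than in the other groups (8.53 to 11.6 FPKM), and its part in the results was not tested. In bulk RNA, fewer cells of a type and less RNA per cell cannot be told apart.

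KLF proteins are transcription factors that bind GC-rich and CACCC sequences through C-terminal zinc fingers of the type shared with the SP proteins. They fall into groups by their N-terminal partners. KLF10, KLF11, KLF13, KLF9 and KLF16 recruit the SIN3A corepressor, KLF3, KLF8 and KLF12 recruit CtBP, and KLF2, KLF4, KLF6 and KLF7 act largely as activators. In T cells KLF2, downstream of FOXO1, maintains quiescence and the expression of homing receptors, KLF4 restrains CD8+ T cell proliferation, and KLF13 was described as an activator of Ccl5 late after activation. Klf10 and Klf11 are known as TGF-beta inducible early genes.

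Promoter windows of RefSeq (GRCm38.p6, 250 bases before to 50 after a start) were found for 8 of the 9 genes, all but Klf10. Those of Klf11, the gene that differed most with TVA, and of Klf2, Klf3 and Klf13, the genes that fell with siCreb1, are shown from the window's first base up to the base before the annotated gene. Capitals mark the GC box, GGGCGG or CCGCCC, and the core of the cAMP response element, TGACG or CGTCA, on either strand.
Klf11 (chr12:24651121-24651273, plus strand): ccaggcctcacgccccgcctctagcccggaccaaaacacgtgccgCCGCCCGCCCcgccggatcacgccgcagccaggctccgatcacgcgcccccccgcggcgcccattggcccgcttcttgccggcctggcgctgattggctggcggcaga
Klf2 (chr8:72318812-72319032, plus strand): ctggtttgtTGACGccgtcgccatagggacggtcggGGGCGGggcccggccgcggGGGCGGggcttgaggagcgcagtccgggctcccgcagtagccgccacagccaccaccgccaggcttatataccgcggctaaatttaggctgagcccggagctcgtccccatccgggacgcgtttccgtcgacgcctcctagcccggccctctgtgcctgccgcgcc
Klf3 (chr5:64803271-64803387, plus strand): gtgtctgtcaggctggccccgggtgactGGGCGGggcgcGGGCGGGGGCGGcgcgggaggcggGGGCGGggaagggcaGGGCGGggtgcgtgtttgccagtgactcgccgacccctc
Klf13 (chr7:63938916-63939165, minus strand): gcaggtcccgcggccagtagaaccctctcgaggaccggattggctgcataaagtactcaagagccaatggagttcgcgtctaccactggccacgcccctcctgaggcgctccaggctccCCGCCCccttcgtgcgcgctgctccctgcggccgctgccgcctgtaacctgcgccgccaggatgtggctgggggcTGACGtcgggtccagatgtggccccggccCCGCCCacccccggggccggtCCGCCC

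The full cAMP response element, TGACGTCA, was in 0 of the 8 windows and in 1.79% of the 32851 windows of all genes. Its core was in 5 of the 8 windows (Klf2, Klf3, Klf4, Klf12 and Klf13) and in 20.8% of all windows. The Klf12 window (100149747 to 100150046) lies inside the annotated gene, which starts at 100284679 on the minus strand. That of Klf7 (64121340 to 64121639) also lies inside its gene, which starts at 64122282 on the minus strand. The core in Klf2 began 241 bases and that of Klf13 56 bases before the start, while that of Klf3 lay 20 bases after it, outside the stretch shown. The windows of Klf11, Klf6 and Klf7 held none. The GC box was in 7 of the 8 windows (35.7% of all), with 4 matches in the Klf11 window, a pair of which overlap and lie in the stretch shown. The CACCC box, CACCC or GGGTG, was in 5 of the 8 (57.5% of all). A match is a description of letters and not evidence of binding.

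The mean levels of the 9 genes ranged from 0.151 to 254 FPKM, a scale that is per length and so can be compared between genes. Klf2 had the highest level of the family in each group, at a mean of 254 FPKM over the 12 libraries. Klf13 followed at 69.6 FPKM, Klf6 at 26.5 FPKM and Klf3 at 16.7 FPKM. Klf10 at 3.12, Klf7 at 2.62 and Klf11 at 2.53 FPKM formed a low group, and Klf4 at 0.271 and Klf12 at 0.151 FPKM lay below the minimum for testing. In the siNTC and siCreb1 groups Klf7 and Klf10 overlapped in their libraries, with Klf11 below both. With TVA the order of this low group changed: in siNTC plus TVA all Klf11 libraries (3.85 to 4.31 FPKM) lay above all Klf10 libraries (3.09 to 3.82 FPKM), while in siCreb1 plus TVA all Klf10 libraries (3.82 to 4.22 FPKM) lay above all Klf11 libraries (3.06 to 3.49 FPKM). Both lay above Klf7 in the groups with TVA.

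**Figure D1:**
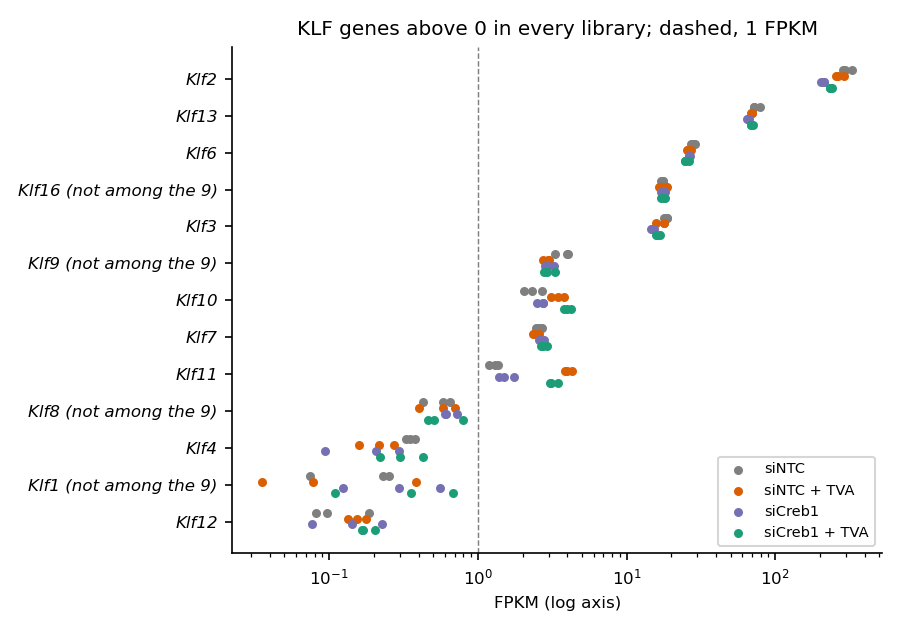
FPKM of the 13 KLF genes that were above 0 in every library, on a log axis, 1 point per library and 1 colour per group, ordered by mean. Klf2 lies above 200 FPKM and Klf12 under 0.3 FPKM in every library, and the Klf11 points split into libraries with and without TVA.

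Of the 9 genes 7 were above a mean of 1 FPKM and were tested among 11550 genes, with limma on log2(FPKM + 1) and Benjamini-Hochberg adjustment over all of them. Klf4 and Klf12 were not. With TVA in siNTC cells, Klf11 and Klf10 rose and 5 were not called, where 7.38% of all tested genes were called in either direction. With TVA in siCreb1 cells, Klf11 and Klf10 were again called higher and 5 were not (0.537% of all genes). With siCreb1 against siNTC in the absence of TVA, Klf2, Klf3 and Klf13 fell and 4 were not called (13.7% of all genes). With siCreb1 against siNTC in the presence of TVA, Klf2 and Klf11 were called lower and 5 were not (10.1% of all genes). The difference between the TVA effects was called for 0 of the 7 genes by limma on FPKM (2.24% of all genes). At an unadjusted p under 0.05 by limma were 4 of the 7 and 1657 of all 11550 genes. Limma-voom, run on read numbers, called 3 of the 7 and 446 of all 11550. Because the genes were listed with these results known, these counts are descriptions. The median differences of the 7 genes were -0.09, 0.11, -0.08, -0.06 and 0.09 in the order given, and those of all tested genes lay between -0.01 and 0.002.

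**Figure D2:**
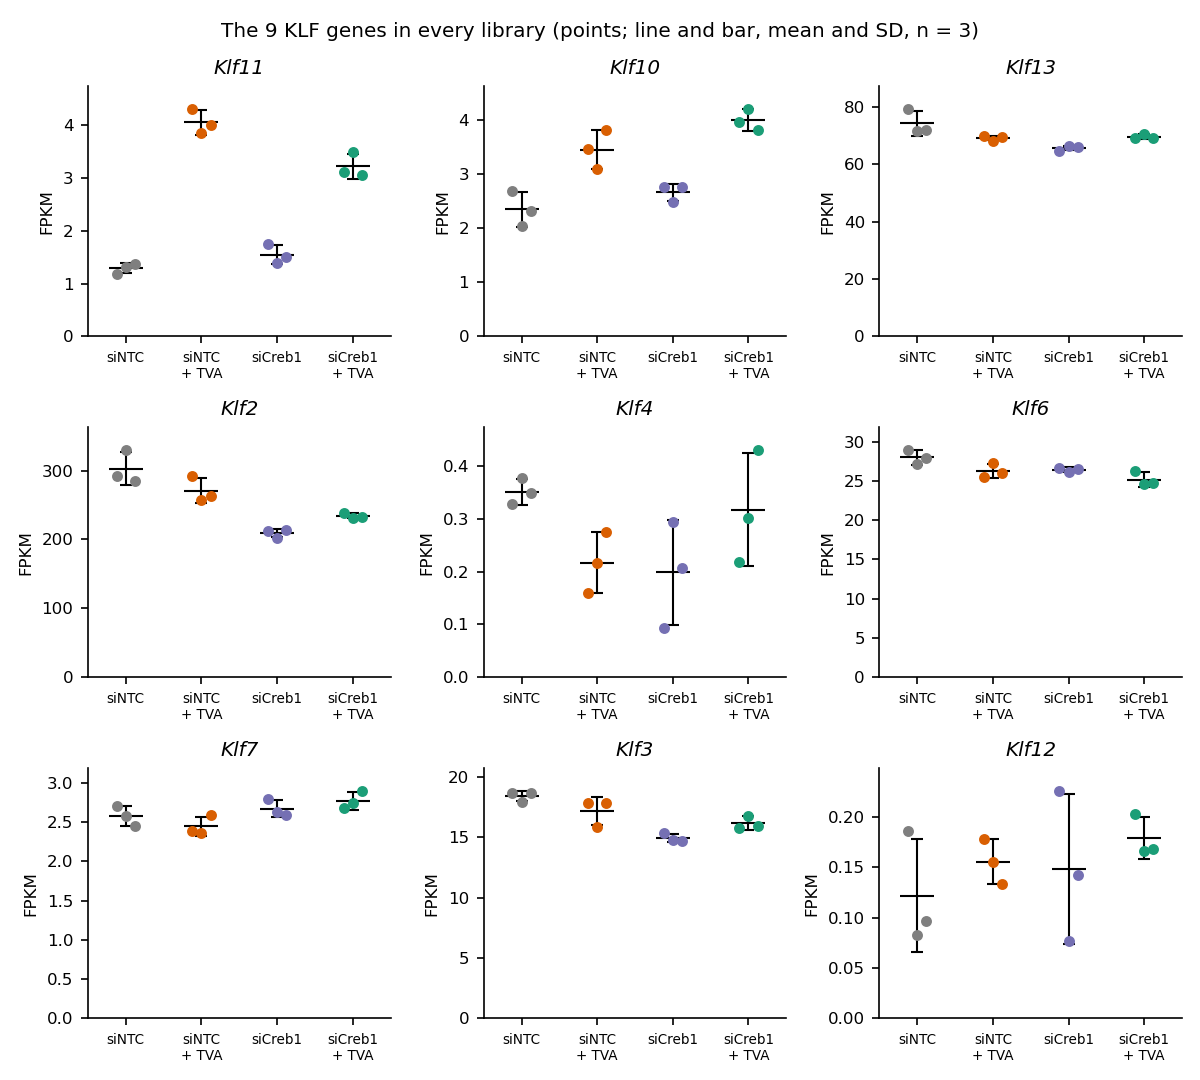
FPKM of each of the 9 genes in every library (points) with the mean and SD (line and bar, n = 3) by group, each axis starting at 0. Klf11 and Klf10 are higher in both groups with TVA, Klf2 is highest in siNTC, and the points of Klf4 and Klf12 scatter widely.

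Klf11 (ENSMUSG00000020653, GRCm38 chromosome 12, 24651274 to 24662789, plus strand) encodes a SIN3A-binding repressor and activator known from TGF-beta signalling and metabolic regulation. Its level was 1.19, 1.31 and 1.38 FPKM in the siNTC libraries and 4.31, 3.85 and 4.00 FPKM in the siNTC plus TVA libraries. It was 1.75, 1.39 and 1.501 FPKM in the siCreb1 libraries and 3.12, 3.49 and 3.06 FPKM in the siCreb1 plus TVA libraries. The lowest library with TVA lay above the highest library without it in both kinds of cells, and no pair of groups overlapped. These levels rest on 99 to 379 reads per library, so counting error is a larger share of their spread than for Klf2.

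TVA went with 3.14-fold more Klf11 RNA on the FPKM scale in siNTC cells (4.05 ± 0.237 against 1.29 ± 0.0960 FPKM, SD, n = 3), a log2 difference of 1.14 with a 95% interval of 0.98 to 1.30. This was the rise at rank 19 among the 11550 tested genes on the log2(FPKM + 1) scale, which understates the change of low genes. In siCreb1 cells the level was 2.08-fold higher with TVA (3.22 ± 0.234 against 1.55 ± 0.185 FPKM), a log2 difference of 0.73 with an interval of 0.57 to 0.89. Without any 1 library the log2 difference lay between 1.104 and 1.17 in siNTC cells and between 0.68 and 0.79 in siCreb1 cells. The difference was smaller in siCreb1 cells by 0.41 on the log2 scale, with an interval of 0.18 to 0.64, which did not pass the threshold over all genes.

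Between the cells without TVA, Klf11 was 1.20-fold higher in siCreb1, with an interval of the log2 difference from -0.01 to 0.31 and no call. Between the cells with TVA, the siCreb1 level was 79.5% of the siNTC level, a log2 difference of -0.26 with an interval of -0.42 to -0.10. That call stood close to the threshold. Without any 1 library the difference lay between -0.30 and -0.22, and the call held only where siCreb1 replicate 1 was left out and ended for each of the other 11 libraries. It also ended with a pseudocount of 0.1, all genes, TPM, the replicate block and only the compared libraries.

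Klf10 (ENSMUSG00000037465, GRCm38 chromosome 15, 38291463 to 38300706, minus strand), the closest relative of Klf11 and likewise a TGF-beta inducible repressor, moved in the same direction with TVA. Its level was 2.68, 2.04 and 2.33 FPKM in siNTC and 3.47, 3.09 and 3.82 FPKM in siNTC plus TVA libraries. In siCreb1 libraries it was 2.76, 2.48 and 2.76 FPKM, and in siCreb1 plus TVA libraries 3.98, 4.22 and 3.82 FPKM. The groups with and without TVA did not overlap in either kind of cell, while siNTC and siCreb1 overlapped in the absence of TVA.

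The Klf10 level with TVA was 147% of that without it in siNTC cells and 150.2% in siCreb1 cells, log2 differences of 0.41 (0.23 to 0.60) and 0.45 (0.27 to 0.63). The interval of their difference ran from -0.22 to 0.29. The first call held without any 1 library but was lost in a fit of the 6 compared libraries. The second ended without siNTC replicate 3, siNTC plus TVA replicate 1 or 3, or any 1 of the 6 siCreb1 libraries, with values between 0.41 and 0.48 over all 12 libraries left out, and also with a pseudocount of 0.1, all genes, quantile normalization, TPM, the replicate block and only the compared libraries. The siCreb1 to siNTC differences of Klf10 were 0.13 (-0.05 to 0.32) without TVA and 0.17 (-0.01 to 0.35) with it, and neither was called.

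Klf13 (ENSMUSG00000052040, GRCm38 chromosome 7, 63886351 to 63938915, minus strand), also of the SIN3A-binding group, was measured at 79.3, 71.7 and 71.7 FPKM in siNTC libraries. It was at 69.8, 68.2 and 69.4 FPKM in siNTC plus TVA, 64.7, 66.2 and 65.8 FPKM in siCreb1, and 69.1, 70.5 and 69.2 FPKM in siCreb1 plus TVA libraries. siNTC replicate 1 stood above the rest, and the siCreb1 libraries lay below those of every other group. The siCreb1 level was 88.3% of the siNTC level without TVA, a log2 difference of -0.17 (-0.25 to -0.10) that was called also without any 1 library (-0.20 to -0.13). It was not called after rescaling to TPM or in a fit of the 6 compared libraries. With TVA, siCreb1 and siNTC overlapped (0.01, -0.07 to 0.09). The difference between the TVA effects was 0.18 (0.07 to 0.29) and not called, but was called by limma-voom and without siNTC replicate 1, where it was 0.14.

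Of the activators, Klf2 (ENSMUSG00000055148, GRCm38 chromosome 8, 72319033 to 72321656, plus strand), the quiescence and homing factor, differed most between siNTC and siCreb1. Its level was 293, 330.2 and 286 FPKM in siNTC libraries and 292, 258 and 263 FPKM in siNTC plus TVA libraries. It was 212, 203 and 214 FPKM in siCreb1 and 239, 232 and 233 FPKM in siCreb1 plus TVA libraries. All siCreb1 libraries lay below all others, and the siCreb1 plus TVA libraries lay between them and the siNTC libraries.

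Without TVA the Klf2 level in siCreb1 cells was 69.2% of that in siNTC cells, a log2 difference of -0.53 (-0.65 to -0.40) that stayed between -0.57 and -0.46 without any 1 library and was called each time. With TVA it was 86.6% of the siNTC level, -0.20 (-0.33 to -0.08). This second call held only where siNTC replicate 2 or 3 was left out and ended for each of the other 10 libraries, between -0.24 and -0.15. It also ended with all genes, quantile normalization, TPM, the replicate block, no trend and only the compared libraries. TVA itself gave estimates of opposite sign, -0.16 (-0.29 to -0.03) in siNTC and 0.16 (0.04 to 0.29) in siCreb1 cells, and neither was called except by limma-voom. Their difference of 0.32 (0.14 to 0.50) was not called, but was called by limma-voom and without siNTC plus TVA replicate 1, where it was 0.38.

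Klf6 (ENSMUSG00000000078), an activator and early response gene, was between 24.5 and 29.0 FPKM in all 12 libraries. The highest group mean was 28.0 ± 0.924 FPKM in siNTC and the lowest 25.2 ± 0.914 FPKM in siCreb1 plus TVA. Its 4 pairwise log2 differences lay between -0.09 and -0.06, and none was called. Klf7 (ENSMUSG00000025959), an activator best known from neurons, was between 2.37 and 2.90 FPKM, with pairwise log2 differences of -0.05 to 0.13 and no call. The siCreb1 plus TVA libraries of Klf7 (2.68, 2.74 and 2.90 FPKM) lay above the siNTC plus TVA libraries (2.39, 2.37 and 2.59 FPKM), a log2 difference of 0.13 (0.01 to 0.25).

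Klf4 (ENSMUSG00000003032), the factor that restrains CD8+ T cell division, was below the minimum for testing, with 6 to 29 reads per library. It measured 0.329, 0.377 and 0.348 FPKM in siNTC, 0.160, 0.217 and 0.274 FPKM in siNTC plus TVA, 0.0941, 0.294 and 0.208 FPKM in siCreb1, and 0.219, 0.301 and 0.431 FPKM in siCreb1 plus TVA libraries. The 3 siNTC libraries lay above those of siNTC plus TVA and of siCreb1, and overlapped those of siCreb1 plus TVA. No difference was tested at this depth.

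The CtBP-binding repressors were Klf3 (ENSMUSG00000029178, GRCm38 chromosome 5, 64803388 to 64832901, plus strand) and Klf12 (ENSMUSG00000072294). Klf3 was at 18.7, 17.9 and 18.6 FPKM in siNTC libraries, 17.8, 15.9 and 17.8 FPKM in siNTC plus TVA, 15.3, 14.7 and 14.7 FPKM in siCreb1, and 15.8, 16.8 and 15.9 FPKM in siCreb1 plus TVA libraries. As for Klf2 and Klf13, the siCreb1 libraries lay below all others. The siCreb1 level was 81.1% of the siNTC level without TVA, a log2 difference of -0.29 (-0.38 to -0.19), which was called under every alternative run. With TVA the groups overlapped and the difference was -0.08 (-0.18 to 0.02). The difference between the TVA effects on Klf3 was 0.20 (0.06 to 0.35), called by limma-voom only.

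Klf12 stood at 0.0769 to 0.226 FPKM with 10 to 34 reads per library, and its groups overlapped. Klf3 shares 1722 bases with C230096K16Rik on the same strand, at a mean of 177 reads per library, and 730 bases with Gm20033 on the other strand, at 67.6 reads, against 2968 to 4723 reads for Klf3 itself. Klf13 overlaps Gm27252 and E030018B13Rik on the other strand, at 13.3 and 5.17 reads. Whether the counting used strand is not stated, so reads of these overlaps cannot be told apart. No other gene in the files overlaps Klf11, Klf10, Klf2, Klf6 or Klf4.

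**Figure D3:**
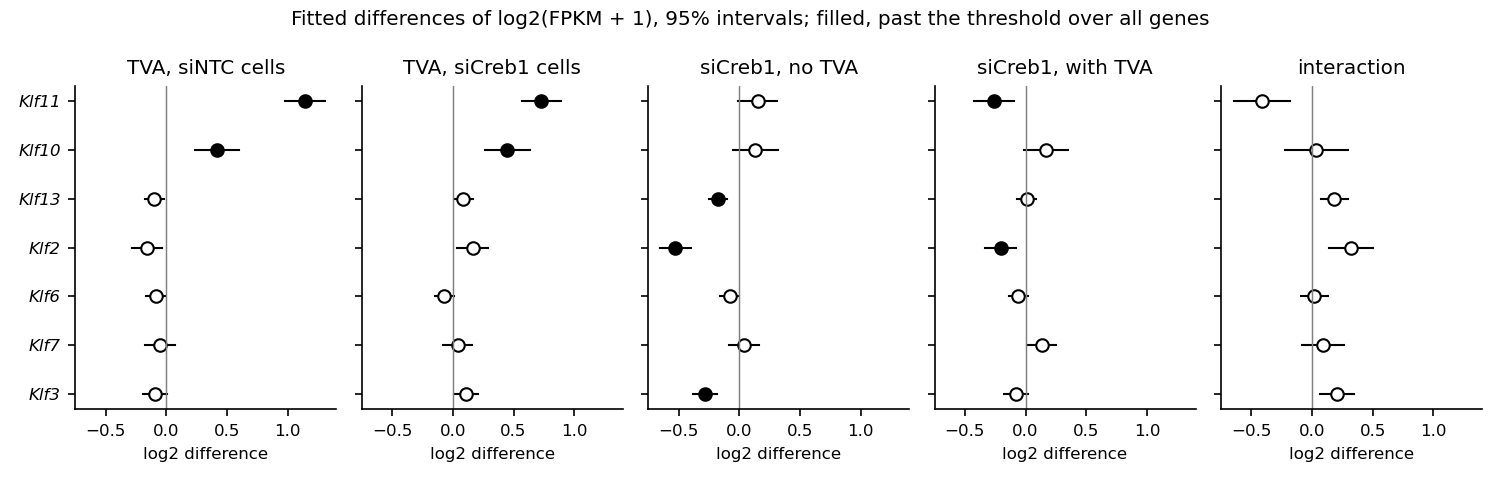
Fitted log2 differences of the 7 tested genes (points) with 95% intervals (lines) in the 5 comparisons, filled where past the threshold over all 11550 genes. Klf11 and Klf10 lie to the right of 0 with TVA, and Klf2, Klf3 and Klf13 to the left with siCreb1 in the absence of TVA.

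The 8 other KLF genes were read alongside. Klf16, a SIN3A-binding member, was at 16.6 to 18.7 FPKM, with log2 differences between 0.01 and 0.02 in the 4 pairwise comparisons, intervals within -0.09 to 0.11, and no call. Klf9, of the same group, was at 3.99, 3.29 and 4.02 FPKM in siNTC and 3.02, 2.74 and 2.98 FPKM in siNTC plus TVA libraries. It was at 2.84, 2.98 and 3.24 FPKM in siCreb1 and 3.32, 2.94 and 2.77 FPKM in siCreb1 plus TVA libraries. The siNTC libraries lay above those of siNTC plus TVA and siCreb1, with log2 differences of -0.28 (limma adjusted p = 0.0549) and -0.24 (limma adjusted p = 0.0629), and neither was called. Klf8 and Klf1 were at means of 0.589 and 0.265 FPKM, Klf5 at 0.0413 FPKM, Klf15 had 1 read in 1 library, and Klf14 and Klf17 had 0 reads.

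Of the 9 SP genes, which share the zinc finger type, Sp1, Sp2, Sp3 and Sp4 were tested. By limma 0 were called in each of the 5 comparisons, where 0.537% to 13.7% of all genes were called, so few calls are awaited among 4 genes. Of the 4, 0 to 2 were at an unadjusted p under 0.05, and limma-voom called 1 with TVA in siNTC cells and 0 in the others. Over all 11550 genes, 1106 to 3248 were at such a p, and limma-voom called 1015 with TVA in siNTC cells. The Sp1 level was 1.08-fold higher with TVA in siNTC cells (24.2 against 22.5 FPKM, limma adjusted p = 0.0631). The pairwise log2 differences of Sp3, the SP gene with the highest level, were between -0.09 and 0.05. Sp5 to Sp9 had at most 7 reads in a library.

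Genes placed upstream of Klf2 and Klf4 in T cells include the FOXO factors, the MEF2 factors and the class IIa deacetylases that bind them. As this list and those that follow were chosen with earlier results known, their counts and p-values are descriptions. Of 9 tested, 3 fell with TVA in siNTC cells (7.38% of all genes were called), 0 with TVA in siCreb1 cells (0.537%), 2 with siCreb1 in the absence (13.7%) and 1 in the presence of TVA (10.1%), and 0 differed in their TVA effect (2.24%). The counts with siCreb1 are near the shares over all genes. The counts of 0 had 1 and 3 genes at an unadjusted p under 0.05 by limma, and 0 and 1 called by limma-voom. Over all 11550 genes, 1106 and 1657 were at such a p, and limma-voom called 155 and 446. Foxo1, the activator of Klf2, was at 30.2, 29.2 and 29.5 FPKM in siNTC and 27.0, 26.9 and 26.8 FPKM in siCreb1 libraries, which did not overlap. It fell by 0.13 on the log2 scale (limma adjusted p = 0.00688), a call lost after rescaling to TPM. Hdac5, a deacetylase that binds MEF2 proteins, fell more with siCreb1, from 10.3 to 8.06 FPKM (log2 -0.32, limma adjusted p = 0.000585). The calls of Foxo3, Mef2d and Hdac5 with TVA in siNTC cells and of Hdac5 with siCreb1 in the presence of TVA were lost under 8 to 15 of 21 alternatives, siNTC replicate 1 and siNTC plus TVA replicates 1 and 2 being the libraries without which each of them ended. The list's median was -0.06 with TVA in siNTC cells, 0.03 with TVA in siCreb1 cells, -0.06 with siCreb1 in the absence and 0.05 in the presence of TVA, and 0.08 for the difference between TVA effects, against -0.01, -0.001, -0.001, -0.01 and 0.002 over all genes.

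Of 8 genes described as targets of KLF2, KLF4 or KLF13 in T cells, 5 fell with TVA in siNTC cells (7.38% of all genes were called). With siCreb1, 6 fell in the absence of TVA (13.7%) and 5 in its presence (10.1%). With TVA in siCreb1 cells 0 were called (0.537% of all genes). There 4 of the 8 were at an unadjusted p under 0.05 by limma, against 1106 of all 11550 genes. Limma-voom called 0 of the 8, against 155 of all 11550. The medians of the 8 genes in these comparisons were -0.14, -0.18, -0.15 and 0.02, against -0.01, -0.001, -0.01 and -0.001 over all genes. S1pr1, the receptor that lets T cells leave lymph nodes, was at 199.9, 196 and 197 FPKM in siNTC and 175, 175 and 177 FPKM in siNTC plus TVA libraries. It was at 144, 145 and 144 FPKM in siCreb1 and 148, 149 and 152 FPKM in siCreb1 plus TVA libraries. The siNTC libraries were the highest and the siCreb1 libraries the lowest, the same order of group means as for Klf2.

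S1pr1 fell by 0.45 on the log2 scale with siCreb1 in the absence of TVA (limma adjusted p = 1.08e-06), by 0.23 in its presence (limma adjusted p = 0.000137) and by 0.17 with TVA in siNTC cells (limma adjusted p = 0.000247), and each call held under all 21 alternatives. S1pr4, a related lymphocyte receptor, fell by 0.48 with siCreb1 in the absence of TVA, from 118 to 84.1 FPKM (limma adjusted p = 2.72e-05). Ccr7, the lymph node homing receptor, fell by 0.25, from 268 to 224 FPKM (limma adjusted p = 6.18e-05).

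Ccl5, the chemokine gene that KLF13 is known for, was at 169, 167 and 163 FPKM in siNTC and 143, 147 and 150.5 FPKM in siCreb1 libraries. It fell by 0.18 with siCreb1 in the absence of TVA (limma adjusted p = 0.00277), and the groups with TVA overlapped. Cdkn1b, which encodes a cell cycle inhibitor, fell by 0.17, from 68.4 to 60.7 FPKM (limma adjusted p = 0.00381), a call lost after rescaling to TPM. Cdkn1a, another such inhibitor, was lower in siCreb1 than in siNTC cells in the presence of TVA, at 2.91 against 4.23 FPKM (log2 -0.42, limma adjusted p = 0.0120). Itgb7, an integrin subunit, was not called in any comparison. The part of the KLF genes in these levels was not tested.

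**Figure D4:**
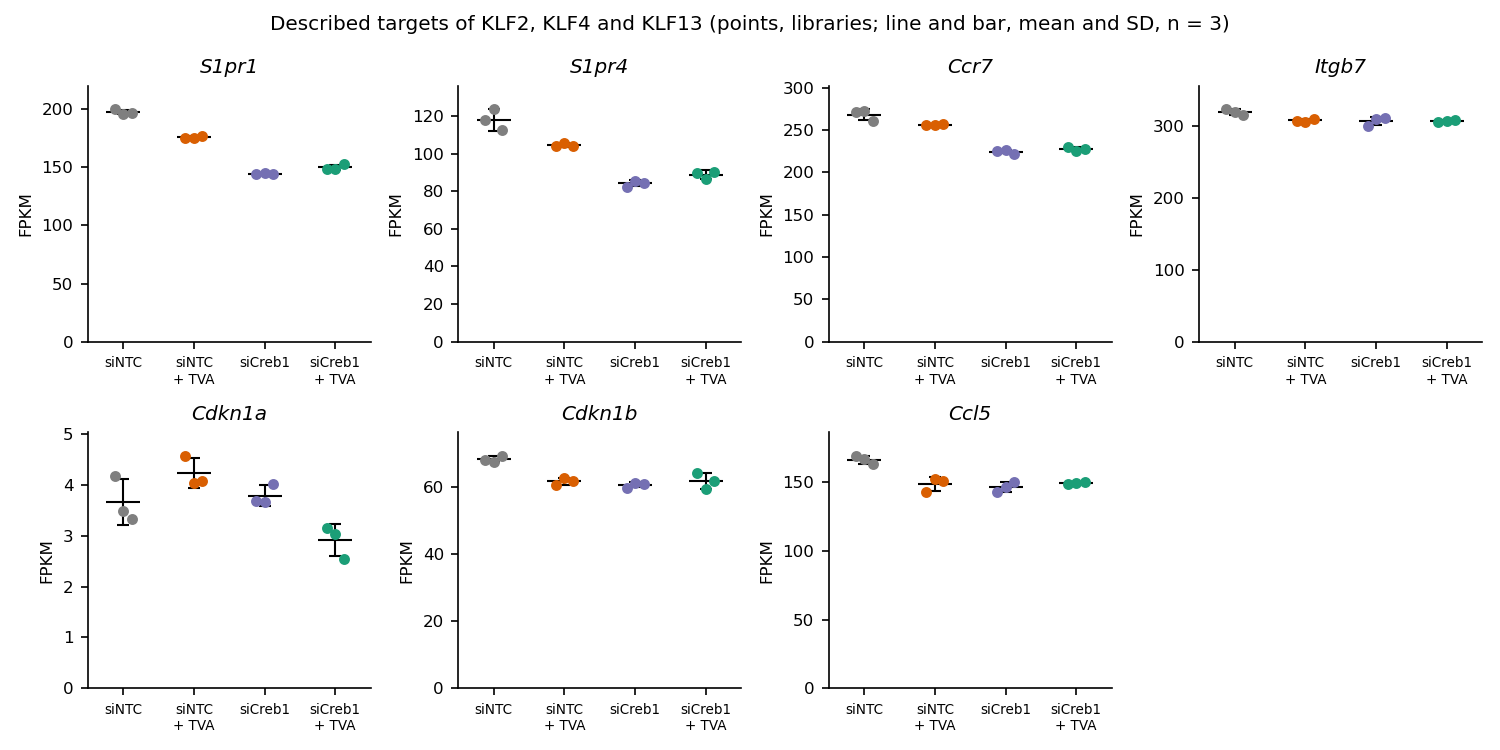
FPKM of 7 described targets of KLF2, KLF4 and KLF13 in every library (points) with the mean and SD (line and bar, n = 3), each axis starting at 0. For S1pr1, S1pr4 and Ccr7 the siNTC libraries are the highest and the siCreb1 libraries with and without TVA the lowest.

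Of 15 tested genes of the TGF-beta pathway, through which Klf10 and Klf11 were first described, 2 fell with TVA in siNTC cells, where 7.38% of all genes were called, and 0 were called with TVA in siCreb1 cells (0.537% of all genes, 2 of the 15 at an unadjusted p under 0.05 by limma, 0 called by limma-voom). With siCreb1 in the absence of TVA 1 rose and 4 fell, where 13.7% of all genes were called. In the presence of TVA 0 were called (10.1% of all genes, 5 of the 15 at an unadjusted p under 0.05 by limma, 1 called by limma-voom). Of the 15, 1 differed in its TVA effect (2.24% of all genes). Over all 11550 genes, 1106 were at an unadjusted p under 0.05 with TVA in siCreb1 cells and 3029 with siCreb1 in the presence of TVA. Limma-voom called 155 and 1536 there. Tgfbr2, a receptor subunit, fell by 0.16 on the log2 scale with TVA in siNTC cells, from 35.3 to 31.5 FPKM (limma adjusted p = 0.00114), and by 0.18 with siCreb1, to 31.1 FPKM (limma adjusted p = 0.000734). Smad7, the inhibitory SMAD and a TGF-beta induced gene itself, fell by 0.23 with TVA in siNTC cells, from 25.7 to 21.8 FPKM (limma adjusted p = 0.0160), a call that ended without siNTC replicate 2 or siNTC plus TVA replicate 2 and with only the compared libraries. It fell by 0.33 with siCreb1, to 20.2 FPKM (limma adjusted p = 0.00193). Smad4 and Ski fell with siCreb1 as well, by 0.22 (limma adjusted p = 0.00873) and 0.26 (limma adjusted p = 0.0215), both calls lost after rescaling to TPM. That of Ski was lost also with all genes, with only the compared libraries and without siNTC replicate 1 or siCreb1 replicate 1. The call of Tgfbr1 as higher was lost under 11 of 21 alternatives, among them leaving out any single library except siNTC plus TVA replicates 1 and 2 and siCreb1 replicate 2. The list's median was -0.06 with TVA in siNTC cells, against -0.01 over all genes, and between -0.02 and 0.01 in the other comparisons.

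Of 14 tested corepressors and coactivators of KLF proteins, 0 were called with TVA in either kind of cell or with siCreb1 in the absence of TVA, where 1 or 2 had an unadjusted p under 0.05 by limma and 0 were called by limma-voom. The shares of all genes called there were 7.38% (TVA, siNTC cells), 0.537% (TVA, siCreb1 cells) and 13.7% (siCreb1 without TVA). In the same order, 2417, 1106 and 3248 of all 11550 genes were at an unadjusted p under 0.05 by limma, and limma-voom called 1015, 155 and 1974. The count of 0 with TVA in siCreb1 cells is near its share. Ctbp1, the partner of KLF3 and KLF12, and Sap30, a subunit of the SIN3A complex, were called lower in siCreb1 than in siNTC cells with TVA, at 92.4% and 82.9% of the siNTC level, and lost those calls under 15 and 9 of 21 alternatives. This count of 2 is near the share over all genes (10.1%). Ctbp1 kept its call without siNTC replicate 2 or 3 and no other single library, and Sap30 lost its call without siNTC plus TVA replicate 1 or 2 or any 1 siCreb1 plus TVA library. Sin3a and Sin3b, the partners of KLF10 and KLF11, were not called. Of 5 tested ubiquitin ligases described for KLF proteins, Siah1a alone was called, lower with siCreb1 in the absence of TVA (23.7 against 27.1 FPKM, limma adjusted p = 0.0196), where 13.7% of all genes were called. That call was lost under 5 of 21 alternatives, among them without siNTC replicate 2 or 3 or siCreb1 replicate 1.

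The KLF levels were set beside a list of 15 proliferation genes. All 15 rose with TVA in siNTC cells (median log2 0.43), where 7.38% of all genes were called in either direction. All 15 rose also with siCreb1 in the absence of TVA (median 0.26, 13.7% of all genes called), where Klf2, Klf3 and Klf13 fell. With TVA in siCreb1 cells 0 of the 15 were called by limma (median 0.04, 5 at an unadjusted p under 0.05, 1 called by limma-voom), where Klf11 and Klf10 were higher. Only 0.537% of all genes were called there, and the count of 0 is near that share. At an unadjusted p under 0.05 by limma were 1106 of all 11550 genes, so the 5 of 15 lie above that share. Limma-voom called 155 of all 11550 genes there. With siCreb1 in the presence of TVA 8 were called lower (median -0.11, 10.1% of all genes called). That count was 1 after rescaling to TPM, 3 with quantile normalization, 5 with all genes, and 3 to 5 without any 1 library of siNTC plus TVA or siCreb1 plus TVA. The part of proliferation in the KLF differences was not tested.

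The genes whose levels followed Klf11 most closely over the 12 libraries were ranked by Pearson's r of log2(FPKM + 1) among 11549 genes, as a description with no p, since the 12 points share 4 groups. Cpt1a, the carnitine palmitoyltransferase that admits fatty acids to mitochondria, had an r of 0.97. Slc25a20, the carnitine carrier of the inner mitochondrial membrane, had 0.96. Dut, a nucleotide hydrolase, had 0.95, Hilpda, a lipid droplet protein, 0.94, and Rfc4, a clamp loader subunit of DNA replication, 0.93. By Spearman's rho 0 of these 5 stayed among the first 5, at rho of 0.77 to 0.97, so the order depends on the measure.

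The Cpt1a level was 11.4 to 12.05 FPKM in siNTC and 33.6 to 35.3 FPKM in siNTC plus TVA libraries, and 11.6 to 13.0 FPKM in siCreb1 and 32.3 to 33.8 FPKM in siCreb1 plus TVA libraries. Its groups with and without TVA did not overlap. Dut and Rfc4 were higher with TVA by less, at 25.3 against 36.1 FPKM and 9.89 against 14.1 FPKM in siNTC cells. Among the other tested genes of the 9, Klf10 was most like Klf11, with an r of 0.84 at rank 73, while Klf3 and Klf2 had 0.01 and -0.02, Klf13 -0.18, Klf7 -0.19 and Klf6 -0.62.

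**Figure D5:**
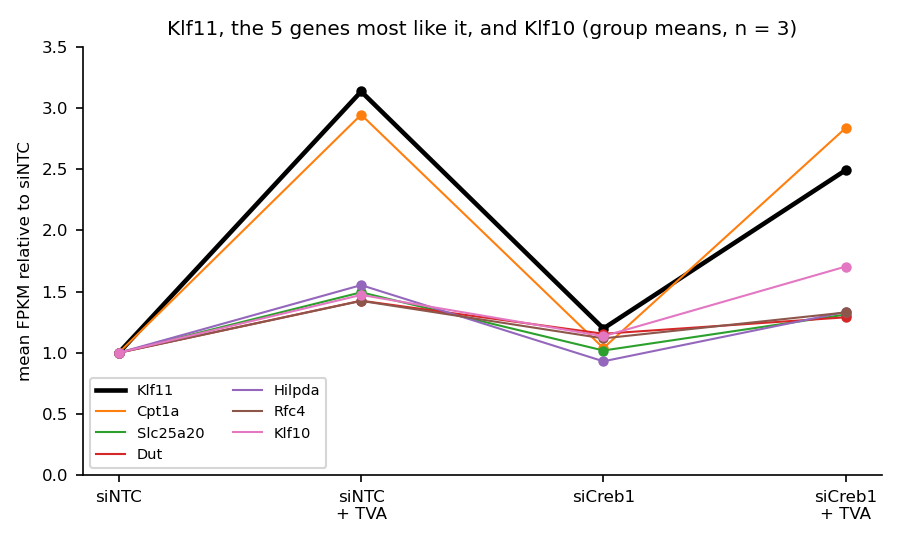
Mean FPKM of Klf11, the 5 genes most like it and Klf10 in each group (n = 3), divided by the gene's siNTC mean, with lines only to join the points of a gene. Klf11 reaches 3.14 in siNTC plus TVA, Cpt1a lies nearest to it, and Klf10 alone of the 7 genes is higher in siCreb1 plus TVA than in siNTC plus TVA.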

How the data were processed

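RNA of 12 libraries was measured in 4 groups of 3. The authors deposited FPKM, fragments per kilobase of gene scaled by library size, for 54532 genes per library. The SMARTER kit is named in the labels, the submitters' processing notes name the builds GRCm38 and mm10, and the aligner, counter and between-library scaling are not given in the sources used here. FPKM times gene length was a whole multiple of 1 step per library for at least 99.995% of genes above 0 (tolerance 0.1), which gave the recovered reads. Genes with a mean of at least 1 FPKM (11550) were tested on log2(FPKM + 1) in 1 fit over all groups with limma 3.58.1 (eBayes with trend, R 4.3.3), adjusted after Benjamini-Hochberg with a threshold of 0.05. The fit was tried on simulated data, whose settings and outcome are not given here, so that trial supports no result. The 9 genes and all lists were chosen with earlier results of these data known. Every one of the 9 genes is named, other KLF and SP genes above the minimum, listed genes past the threshold, Creb1, and the 5 genes most like Klf11, but 1 listed gene that enters the counts is not reported here. Results were recomputed with a pseudocount of 0.1, without the minimum (29700 genes), with a minimum of 5 FPKM, quantile normalization, TPM, a block on the replicate number, no trend, limma-voom, only the compared libraries, and leaving out each library. Libraries of a group differed by 3.54 to 5.29 times the counting variance per gene. Plots: Python 3.11.15, matplotlib 3.10.9.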

Additional observations from a re-analysis of the deposited data

Results flagged for a closer look

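The TVA effect differed between siCreb1 and siNTC cells, by the test of that difference in limma, for 4 genes of the other lists and for all 15 proliferation genes. Each gene was tested by itself, and no list was tested as a whole. Of all tested genes 2.24% were called in this comparison. The lists were chosen with earlier results of these data known, so these p-values are descriptions. For S1pr1, TVA went with 89.0% of the level in siNTC cells and 104% in siCreb1 cells, a difference of 0.22 on the log2 scale (limma adjusted p = 0.00169) that was called under all 20 alternatives. For S1pr4 the difference was 0.25 (limma adjusted p = 0.0217), and the call was lost under 9 of 20 alternatives, among them without replicate 1 or 3 of siNTC plus TVA, siCreb1 or siCreb1 plus TVA. For Ccl5 it was 0.19 (limma adjusted p = 0.0395), lost under 12 of 20, among them leaving out any single library except siNTC replicate 3, siNTC plus TVA replicate 2 and siCreb1 replicate 3. For Smad7 it was 0.31 (limma adjusted p = 0.0474), lost under 15 of 20, among them leaving out any single library except siNTC replicate 3. For the 15 proliferation genes the median difference was -0.39, all 15 were called lower, and 11 to 15 were called under the alternatives. None of the 7 tested KLF genes was called in this comparison by limma on FPKM, a count near the share over all genes (2.24%). By limma 4 of the 7 were at an unadjusted p under 0.05, against 1657 of all 11550 genes. Limma-voom called 3 of the 7, against 446 of all 11550. Both of these counts lie above the shares over all genes, and the KLF genes were listed with results of these libraries known.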

How the results depend on the processing

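No called difference of a KLF gene changed sign under any alternative. Of the refitted differences, 649 kept their direction and side of the threshold, 50 lost a call, 7 gained one and 7 changed sign without a call before or after. The number of KLF genes called with TVA in siNTC cells was 0 at a minimum of 5 FPKM, which leaves Klf10 and Klf11 out, and 1 in the fit of only the compared libraries. With TVA in siCreb1 cells it was 1 with a pseudocount of 0.1, all genes, quantile normalization, TPM, the replicate block and only the compared libraries, 0 at the minimum of 5 FPKM, and 1 to 2 when each library was left out. With siCreb1 against siNTC in the presence of TVA it was 1 with a pseudocount of 0.1, the minimum of 5 FPKM, quantile normalization and no trend, 0 with all genes, TPM, the replicate block and only the compared libraries, and 0 to 2 without each library. For the difference between TVA effects it was 3 by limma-voom and 0 to 1 without each library. Apart from the change to the genes or libraries tested, the cause was not tested. No pairing by replicate number was visible: same-numbered libraries correlated on average by -0.04 to 0.03 in their deviations, and 0 to 2 of 3 libraries correlated best with their own number. With 3 libraries per group this cannot tell whether same-numbered libraries share a mouse or culture, which the labels do not say. The replicate block changed no other count by over 1.5 times among the KLF genes.

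Over all genes the counts moved by over 1.5 times as follows. With TVA in siNTC cells 852 became 563 with all genes, 556 with TPM and 368 with only the compared libraries. With TVA in siCreb1 cells 62 became 37 with TPM, 34 with the replicate block, 39 with only the compared libraries and 155 by limma-voom. With siCreb1 in the absence of TVA 1586 became 992 with all genes and 817 with only the compared libraries. With siCreb1 in the presence of TVA 1172 became 683 with all genes and 740 with TPM. The difference between TVA effects gave 259, 152 with TPM and 446 by limma-voom. Without each library the 5 counts lay at 558 to 767, 30 to 67, 1020 to 1532, 599 to 1245 and 168 to 237. Calls of the other listed genes were kept in 596 and lost in 155 refits.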
